A study of Mus musculus with 8 samples.

Results

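Of the 55681 probes outside the controls on the mouse arrays, 1400 carry a RefSeq accession that begins with NR_, the prefix RefSeq gives to transcripts with no protein product, and these 1400 probes are described here. They stand for 1256 accessions. Of the probes, 1325 were matched to 1183 gene symbols through RefSeq's gene table, and the other 75 keep their accession. The arrays measured dendritic cells grown from bone marrow of female C57BL/6 mice. In the immature group, 4 arrays on RNA taken at day 6, monocytes had been kept in GM-CSF (10 ng/ml) and IL-4. In the LPS group, 4 arrays labelled day 7, cells of that kind had been matured overnight with lipopolysaccharide (LPS) at 50 ng/ml, so that both groups share strain, sex, cytokines and the first 6 days. No array stands for cells kept to day 7 without LPS, and the immature arrays lie in row 1 of the slide and the LPS arrays in row 2. The added night, the slide row and LPS therefore cannot be told apart, and "after LPS" below means the LPS group against the immature group. The labels do not say that the 4 samples of a group came from separate mice or cultures. Where they did not, the p-values measure the spread between these samples only.

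Transcripts without a protein product act in several ways. Long ones can stay at the site of their transcription and alter genes nearby, build nuclear bodies, or carry microRNAs and small nucleolar RNAs (snoRNAs) in their exons and introns. Short structured ones serve as parts of enzymes and of the splicing machinery. LPS is bound on dendritic cells by TLR4, whose signalling through NF-kappaB, AP-1 and interferon regulatory factors turns on cytokines, co-stimulatory molecules and antigen presentation. Long non-coding RNAs that rise in macrophages and dendritic cells after LPS have been described.

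Several members carry microRNAs, and mature sequences are shown for 5 of the hosts that were called, because the array reads the host and not the small RNA cut from it. Over the 375 symbols tested, RefSeq's table placed at least 1 listed microRNA inside 8 members, on the strand of the host where the host's strand was known. MicroRNAs on a single chromosome were left out of this search, so hosts there are not in the count. The seed, bases 2 to 8, is in capitals. Mir17hg, the host of the miR-17 to miR-92 cluster, and F630028O10Rik, whose gene holds the myeloid microRNA miR-223, fell after LPS, as did Mir9-3hg. Mir22hg and Dleu2 rose, and miR-15a-5p and miR-16-5p of Dleu2 share 1 seed, AGCAGCA. Also called were D7Ertd143e, host of the miR-291 to miR-295 cluster known from embryonic stem cells, and Ftx, host of miR-421 and miR-374b, whose sequences are not printed, and Snhg10 with miR-3069 was not called.
miR-92a-3p: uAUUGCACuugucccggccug
miR-223-3p: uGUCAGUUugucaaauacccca
miR-9-5p: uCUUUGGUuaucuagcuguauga
miR-22-3p: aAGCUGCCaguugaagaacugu
miR-15a-5p: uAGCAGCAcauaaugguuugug
miR-16-5p: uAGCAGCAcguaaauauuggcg

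The stretch from 250 bases before to 50 bases after the start is given for 4 members, 5′ to 3′ on the strand of the gene, as RefSeq has it in GRCm38.p6. U90926 (chr5:92215359-92215658, minus strand) is shown because its signal changed most. Gm9895 (chr19:29067051-29067350, plus strand), Bcas1os2 (chr2:170356111-170356410, plus strand) and 1700047M11Rik (chr1:182300584-182300883, plus strand) are shown because a searched motif was present. Capitals mark TTGCNNAA, a C/EBP motif, in Gm9895 and the kappaB consensus in Bcas1os2 and 1700047M11Rik. Bcas1os2 rose and 1700047M11Rik fell, so the kappaB letters stood before a transcript of each direction.
U90926: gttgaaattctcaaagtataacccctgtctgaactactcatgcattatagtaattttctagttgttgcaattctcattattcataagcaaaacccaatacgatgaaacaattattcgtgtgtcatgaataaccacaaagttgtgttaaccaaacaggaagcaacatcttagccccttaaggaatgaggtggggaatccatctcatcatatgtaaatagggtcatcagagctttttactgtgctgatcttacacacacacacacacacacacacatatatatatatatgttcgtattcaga
Gm9895: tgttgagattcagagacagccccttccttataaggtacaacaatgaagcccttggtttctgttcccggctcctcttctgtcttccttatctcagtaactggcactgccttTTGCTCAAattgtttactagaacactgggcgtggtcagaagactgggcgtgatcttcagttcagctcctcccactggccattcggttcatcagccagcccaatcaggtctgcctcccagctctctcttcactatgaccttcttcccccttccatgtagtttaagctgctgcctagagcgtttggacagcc
Bcas1os2: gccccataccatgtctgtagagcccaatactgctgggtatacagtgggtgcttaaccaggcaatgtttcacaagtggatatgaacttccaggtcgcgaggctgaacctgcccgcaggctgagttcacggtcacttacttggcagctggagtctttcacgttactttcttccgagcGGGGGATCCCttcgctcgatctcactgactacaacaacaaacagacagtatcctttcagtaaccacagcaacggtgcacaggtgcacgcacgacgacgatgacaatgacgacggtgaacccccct
1700047M11Rik: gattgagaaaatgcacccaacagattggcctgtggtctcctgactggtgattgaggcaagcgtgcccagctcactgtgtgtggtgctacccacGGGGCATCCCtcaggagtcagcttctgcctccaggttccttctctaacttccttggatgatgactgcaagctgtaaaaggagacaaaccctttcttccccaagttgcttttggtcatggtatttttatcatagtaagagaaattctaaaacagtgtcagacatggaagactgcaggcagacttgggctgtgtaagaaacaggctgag

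The search covered both strands for 6 motifs, namely the kappaB consensus, the interferon response element (GAAA repeated after a gap of any 2 bases), TGANTCA of AP-1, TTGCNNAA of C/EBP, CACGTG and TATAAA, and motifs could overlap. RefSeq's promoter table held 227 of the 375 symbols tested. The kappaB consensus was present for 6 of 69 members that rose (8.70%), for 1 of 49 that fell (2.04%) and for 14 of 109 that were not called (12.8%), against 9.55% of the 27025 genes in the table. Among the 69 that rose, the C/EBP letters stood in 8 (11.6%, against 12.2% of all genes). The interferon response element stood in 2 (2.90%) and TGANTCA in 3 (4.35%), against 3.99% and 8.97% of all genes. Among the 22 that rose at least 2-fold, the C/EBP letters stood in 4 (18.2%), and neither the interferon response element nor TGANTCA was found. U90926 held none of the 6. These counts describe letters in a 300-base window only.

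Levels below are log2 of the deposited processed signal minus the array's 75th percentile, so that 0 is that percentile and 1 unit is a factor of 2. Testing was limited to probes that the scanner software placed well above background throughout 1 of the groups or both. Probes with a p under 0.05 in limma, after Benjamini-Hochberg adjustment over all probes tested, are said to have risen or fallen, or to have been called. On single arrays 32.7% to 36.5% of the non-coding probes were well above background, with a mean of 35.4% ± 1.65 (SD, n = 4) in immature cells and 33.8% ± 0.817 (SD, n = 4) after LPS. The groups overlapped in this share (exact two-sided permutation test, p = 0.143, where 0.0286 is the smallest p that 4 against 4 can give), although without immature replicate 3, the lowest of its group, the exact p was 0.0286 (0.0286 to 0.257 with 1 array left out). The LPS mean minus the immature mean was -1.57 percentage points for non-coding probes, -1.40 for mRNA probes and -2.04 for all spots. For probes named by a chromosome interval it was -3.08. The groups overlapped in each of these shares, and the lower mean was not particular to non-coding probes. Across the 8 arrays 401 non-coding probes were above background throughout and 774 on none. Of the 1400, 465 (33.2%) were tested, against 61.7% of mRNA probes and 46.6% of all probes. Summed dendritic cell markers lay between 10.04 and 10.12 in immature cells and between 10.13 and 10.30 after LPS, and 8 and 7 of the 8 were above background. Within that list 3 rose and 4 fell, with Ccr7 and Flt3 up by 2.12 and 2.65, Itgax down by 0.99 and Cd209a above background on all immature and no LPS arrays. Of the 5 macrophage markers, whose summed levels lay between 6.63 and 7.0 in immature cells and between 6.62 and 6.97 after LPS, Adgre1 rose by 0.93, C1qa and C1qb fell by 2.23 and 2.13, and Mertk and Fcgr1 were not called. Stromal markers were dim as well, at most -0.41 in sum, with Pdgfrb up by 1.85. B-cell, T-cell and erythroid markers were dim, with summed levels at most -0.26, whereas the 5 neutrophil markers on the array fell, from summed levels of 8.34 to 8.66 down to 6.31 to 7.22. What part neutrophil or macrophage RNA had in the changes below was not tested. As a check of the treatment, Il6 rose by 5.59 ± 0.28 (log2 change ± SE) and Irf7 by 6.33 ± 0.11.

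After LPS 110 of the 465 tested non-coding probes were higher and 113 lower, and 242 were not called. In bulk samples fewer cells of a type and less RNA per cell cannot be told apart. That is 48.0% called, close to the 49.7% of all 25941 probes tested; by direction, 23.7% were higher (26.0% of all probes) and 24.3% lower (23.8% of all probes). Changes of at least 2-fold numbered 37 up and 48 down, where 8.12% and 7.78% of all probes passed. The groups did not overlap for 204 members (43.9%, against 47.5% of all probes). The median change was 0.04 on the log2 scale over the members and 0.03 over all probes. The split between directions depended on the scaling and the background correction: dividing by the array median gave 75 up and 143 down, no scaling 70 and 160, the percentile of detected probes 92 and 131, and quantile normalization 96 and 127, whereas normexp background correction gave 127 up and 97 down. With the array median or no scaling, the median change of all probes itself moved to -0.15 and -0.18. Over all probes the split moved alike. Higher were 34.1% of all called probes (34.4% of called members) with the array median and 31.0% (30.4%) without scaling. The shares were 43.7% (41.3%) with detected probes, 46.1% (43.0%) with quantile normalization and 56.7% (56.7%) with normexp. Of the 465, 17 passed the background filter through the LPS arrays alone and 47 through the immature arrays alone; 16 of the former were called up and 27 of the latter down, as the filter favours. Among the 401 above background on all arrays, 94 rose and 86 fell. With the fit itself limited to such probes, 98 members rose and 89 fell, as did 6320 and 5462 of all 23580 probes tested. Higher were then 52.4% of called members and 53.6% of all called probes.

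**Figure D1:**
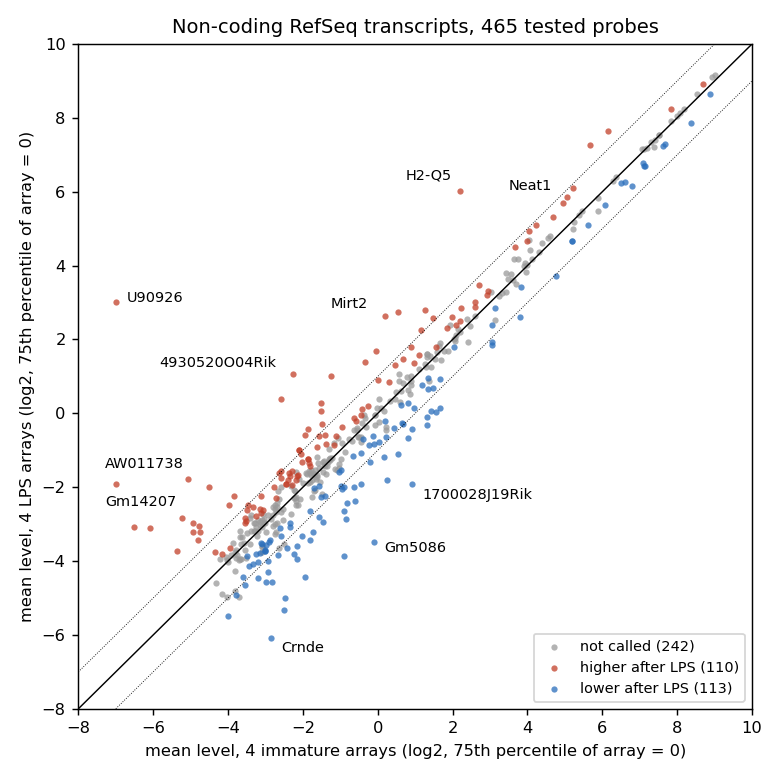
Mean level of each of the 465 tested non-coding probes on the 4 LPS arrays (vertical) against the 4 immature arrays (horizontal), in log2 units relative to each array's 75th percentile; red points were called higher, blue lower and grey not called, the solid line marks equal levels and the dotted lines a 2-fold difference. U90926 lies far above the line at -7.01 and 3.02, and Crnde lies lowest among those that fell, at -6.07 after LPS.

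U90926, a mouse long non-coding RNA, showed the largest change of any member. Its processed signal was 3.22, 3.52, 4.79 and 3.25 on the immature arrays and 1782, 2427, 4875 and 5527 on the LPS arrays. It was not well above background on any immature array and well above it on all 4 LPS arrays, so that only a bound can be given. With the immature value raised to the dimmest signal called above background, U90926 was at least 219.7-fold higher after LPS. The fit (adjusted p 1.34e-06, limma) used the values as measured, so this p does not test the bound. U90926 also entered the fit through the LPS arrays alone. Both limits hold for each p-value printed beside a bound below. The LPS arrays themselves ranged from 2.11 to 3.72 in level, a spread far inside the distance to the immature arrays. No coding gene tested within 100000 bases was called up: Uso1 (log2 change -0.33 ± 0.14), Ppef2 (-0.49 ± 0.43) and G3bp2 (-0.11 ± 0.08) were not called, and Naaa and Sdad1 fell by 1.26 and 1.66.

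Other members were likewise seen only after LPS. AW011738 had levels of -5.11, -4.71, -5.36 and -5.14 on immature arrays, none above background, and of -1.82, -1.98, -1.82 and -1.51 on LPS arrays, at least 7.73-fold higher (adjusted p 2.57e-06, limma). A separate probe for AW011738 gave a bound of 3.22-fold. Gm14207, which overlaps the Notch ligand gene Dll4 in RefSeq's table, went from levels of -7.15 to -6.59 to levels of -2.40 to -1.26, at least 7.17-fold higher (adjusted p 3.9e-06, limma), while the Dll4 probe stayed below background on all arrays. A930024E05Rik rose at least 3.18-fold. In all, 8 probes were above background on every LPS array and on no immature array, and each was called up, which the filter made likely. Bcas1os2 was above background on 2 immature arrays and 4 LPS arrays and rose by 2.52 ± 0.37, whereas Bcas1, the gene it is opposite to, did not pass (-0.33 ± 0.23).

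Among members above background on all 8 arrays, H2-Q5, listed by RefSeq as a transcribed pseudogene of the major histocompatibility complex class I region, rose most. Its level was 1.98, 2.07, 2.50 and 2.25 on immature arrays and 5.88, 5.99, 5.94 and 6.32 on LPS arrays, 14.2-fold higher (log2 change 3.83 ± 0.14, adjusted p 1.46e-06, limma). H2-K2, another class I pseudogene, rose by 1.5 and 1.59 on its 2 probes. Class I genes with an mRNA probe were looked up only under H2-D, H2-K or H2-Q and a number. Those of them that were called rose by less than H2-Q5 in the same fit, and H2-Q1 was above background on no array. H2-K1 and H2-D1, which present peptides to CD8 T cells, rose by 1.30 ± 0.07 and 1.32 ± 0.07. H2-Q7 rose by 1.61 ± 0.07 and H2-Q10 by 1.73 ± 0.08. H2-Q4, the nearest coding gene to H2-Q5, was not called (0.27 ± 0.13). Class I genes are near-identical over long stretches, so how much of each signal came from its own transcript is uncertain, and the difference between H2-Q5 and the others was not tested.

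4930520O04Rik rose 10.1-fold, from levels of -2.37 to -2.04 to levels of 0.83 to 1.25 (log2 change 3.34 ± 0.12, adjusted p 1.34e-06, limma), and the groups lay far apart. Crtap, the coding gene it overlaps, was not called (0.14 ± 0.09), and Bcl2a1c, a BCL2-family gene nearby, rose by 0.79 ± 0.11. Gm8884 rose by 2.97 ± 0.46 with wide spread in both groups, its LPS arrays at -0.16, -0.43, 0.91 and 1.19. Gm9895 rose by 2.27 ± 0.09 with little spread, between -1.45 and -1.13 before and between 0.92 and 1.11 after.

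Mirt2, a long non-coding RNA known as an LPS-induced brake on TRAF6 signalling in macrophages, rose by 2.46 ± 0.52 (adjusted p 0.00457, limma). The immature arrays were at -0.83, -0.66, 1.75 and 0.45 and the LPS arrays at 2.56, 2.81, 2.40 and 2.80. Immature replicate 3 was thus well above replicates 1 and 2 yet still below every LPS array, and without it the change was 2.99. The same array stood apart for other members, as is given below. Mirt1, named with Mirt2 for its link to heart infarction, was not called (-0.57 ± 0.39), and its immature arrays spread from -0.51 to 1.32 with replicate 3 again highest. A330009N23Rik (1.79 ± 0.25), Gm13546 (1.74 ± 0.19), Stxbp3-ps (1.73 ± 0.12) and F730043M19Rik (1.60 ± 0.21) rose with groups apart, as did Slfn10-ps (2.20 ± 0.17), a pseudogene among the interferon-inducible Schlafen genes.

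**Figure D2:**
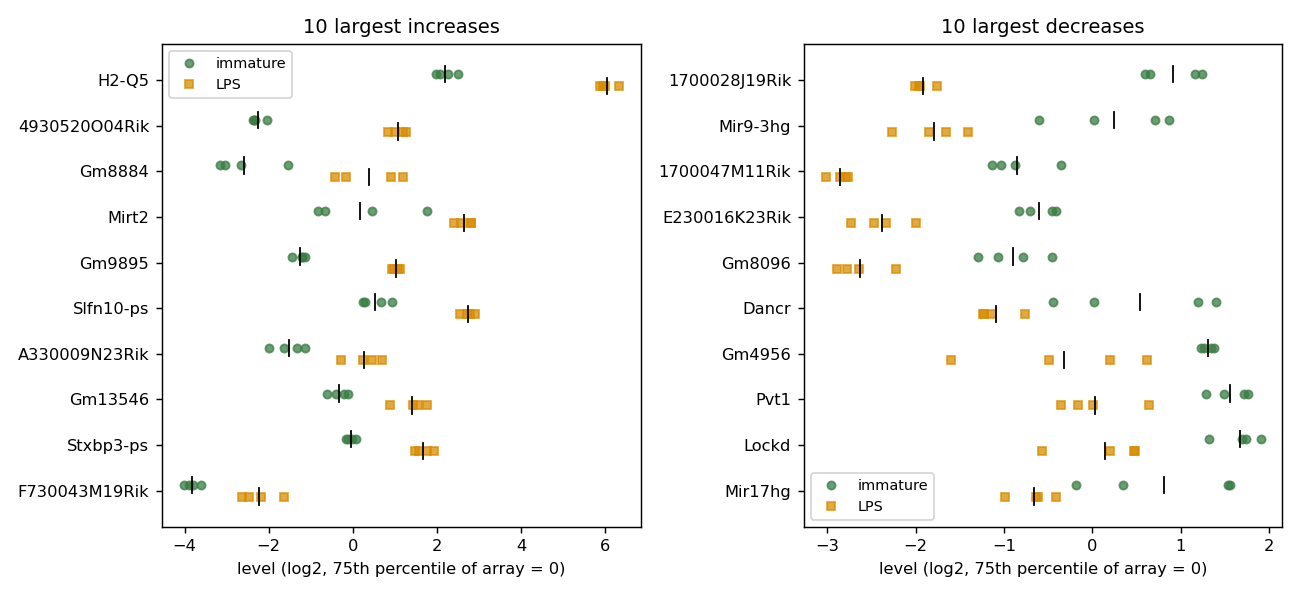
Level on each of the 8 arrays (log2, the array's 75th percentile at 0) for the 10 members with the largest increase and the 10 with the largest decrease among probes above background on all 8 arrays, each gene by its brightest probe; circles are the 4 immature arrays, squares the 4 LPS arrays and bars the group means. Groups do not overlap in any row, which the choice of rows required, and the immature circles of Mirt2, Dancr and Mir17hg are spread widely.

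1700028J19Rik fell most among members above background throughout. Its level was 1.16, 1.24, 0.65 and 0.59 on immature arrays and -1.96, -2.0, -1.75 and -1.96 on LPS arrays, 7.11-fold lower (log2 change -2.83 ± 0.16, adjusted p 6.58e-06, limma). The microRNA host Mir9-3hg (-2.04 ± 0.33), 1700047M11Rik (-2.0 ± 0.17), E230016K23Rik (-1.78 ± 0.17), the pseudogene Gm8096 (-1.73 ± 0.21), the snoRNA host Dancr (-1.63 ± 0.40) and the pseudogene Gm4956 (-1.62 ± 0.42) followed. For Gm4956 the LPS arrays were scattered, at 0.61, 0.20, -0.49 and -1.60, against 1.23 to 1.38 on immature arrays.

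Pvt1, the long non-coding neighbour of Myc, fell on both of its probes, by 1.53 ± 0.21 and 1.46 ± 0.13 on the log2 scale. The brighter probe read 1.71, 1.76, 1.28 and 1.49 on immature arrays and 0.01, -0.16, 0.64 and -0.36 on LPS arrays. Myc itself, the growth-promoting transcription factor, fell by 2.83 ± 0.42 (adjusted p 0.000841, limma). Lockd, transcribed just downstream of the cell-cycle inhibitor gene Cdkn1b, fell by 1.52 ± 0.24, while Cdkn1b was not called (0.86 ± 0.35).

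Some members fell to the edge of the measurable range or below it. Gm5086 stood at 0.03, -0.07, 0.06 and -0.48 on immature arrays and at -2.57, -3.0, -3.80 and -4.52 after LPS, above background on 3 of those 4 (log2 change -3.36 ± 0.39, adjusted p 0.000215, limma). Above background on all immature arrays and on no LPS array were 11 probes, 8 of them called down, the direction that the filter favours. The largest bounds were 4930509E16Rik, at least 4.96-fold lower, 9930014A18Rik, at least 3.45-fold, D030028A08Rik, at least 3.44-fold, and G630025P09Rik, at least 2.73-fold. Crnde, first described as raised in colorectal neoplasia, was at least 2.66-fold lower, from levels of -3.68 to -2.18.

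The microRNA hosts whose sequences are shown above moved in both directions. Mir17hg had levels of 1.56, 1.54, -0.19 and 0.35 on immature arrays and -0.64, -0.62, -0.98 and -0.42 on LPS arrays (log2 change -1.48 ± 0.39, adjusted p 0.0134, limma). Every LPS array lay below every immature array, yet immature replicates 3 and 4 lay more than 1 log2 unit below replicates 1 and 2, and without replicate 3 the change was -1.81. With replicates 1 and 2 of each group averaged to 1 sample the call was lost (adjusted p 0.0627, limma, with 0.00234 to 0.0627 over all alternatives). Mir9-3hg fell with the same order of immature arrays, 0.87, 0.70, -0.60 and 0.02. F630028O10Rik, chosen after its values were seen because it holds miR-223, fell by 1.58 ± 0.23 and was above background on 4 immature and 2 LPS arrays. Mir22hg rose by 0.89 ± 0.15 from levels of -0.32 to 0.30 to levels of 0.76 to 1.16. Dleu2 rose by 0.86 ± 0.13 and read 1.27 to 1.38 on LPS arrays. D7Ertd143e rose by 0.76 ± 0.19, between -2.62 and -2.10 before and between -1.88 and -1.15 after. Nothing on these arrays tells whether the mature microRNAs followed their hosts.

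SnoRNA host genes, whose introns release guides for the modification of ribosomal RNA, were tested with 12 probes. Of these 3 rose (25%, against 26.0% of all probes), 4 fell (33.3%, against 23.8%) and 5 were not called. Snhg6 rose by 0.88 ± 0.10, from 3.89 to 4.25 up to 4.74 to 5.02, Snhg15 by 0.63 ± 0.13 and Snhg1 by 0.40 ± 0.14, the last a call lost under 11 of 18 alternative settings. Dancr fell as given above and Snhg16 by 1.62 ± 0.33 on one probe, with a further probe of Snhg16 at -0.49 ± 0.22, not called. Snhg7 fell by 0.83 ± 0.21 and Snhg17 by 0.98 ± 0.28. In the 4 hosts that fell, immature replicates 3 and 4 lay below replicates 1 and 2 each time, for Dancr at -0.44 and 0.02 against 1.20 and 1.40. Snhg3 (-0.60 ± 0.24, adjusted p 0.0703, limma) missed the threshold and passed it under 6 other settings, and Snhg5, Snhg10 and Snhg12 were not called.

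Among RNAs of nuclear bodies, Neat1, the scaffold of paraspeckles, rose by 0.80 ± 0.16, from 4.87 to 5.26 up to 5.44 to 6.06. Malat1, the abundant speckle RNA transcribed next to Neat1, was not called (0.54 ± 0.25, adjusted p 0.109, limma), its immature arrays ranging from 3.03 to 4.25. Without immature replicate 3 it passed. Morrbid, described as a silencer of the pro-apoptotic gene Bcl2l11 in short-lived myeloid cells, rose by 0.56 ± 0.17, and Bcl2l11 rose as well, by 1.65 ± 0.10. The Morrbid call was lost under 6 settings, among them both scalings that shift all probes down.

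Of 7 tested probes of imprinted transcripts and those of X inactivation 1 rose (14.3%, against 26.0% of all probes) and 3 fell (42.9%, against 23.8%). Peg13, expressed from the paternal allele inside Trappc9, rose by 1.1 ± 0.13 from 1.23 to 1.84 up to 2.44 to 2.73, and Trappc9 rose by 0.36 ± 0.06. Kcnq1ot1, the paternally expressed RNA that silences genes around Kcnq1, fell on both probes, by 0.86 ± 0.17 on the brighter and by 1.08 ± 0.31 on the dimmer. Xist, which coats the inactive X in female cells, differed by -0.10 ± 0.14 and 0.02 ± 0.14 on its 2 probes, and Airn by -0.05 ± 0.14; none was called, and their signs turn with the setting. Ftx, a neighbour of Xist in the X-inactivation centre, fell by 0.54 ± 0.17, a call lost under 7 settings. Meg3, Mirg and Jpx were not tested, since no Mirg or Jpx array and at most 1 Meg3 array was above background.

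Small structured RNAs were tested with 8 probes; none rose and 4 fell, against 23.8% of all probes falling. Terc, the template RNA of telomerase, fell by 0.72 ± 0.17, Rmrp, the RNA of RNase MRP, by 0.38 ± 0.10, and Rnu12, the U12 RNA of the minor spliceosome, by 0.51 ± 0.09, between 5.14 and 5.26 before and between 4.47 and 4.79 after. Snora47 was at least 2.06-fold lower. Rnu1b6, Rnu2-10, Rnu3b1 and Snora74a were not called, with changes from -0.33 to 0.00. Scaling to the array median, or none, gave 7 falls and no rise, where 8484 and 9095 of all 25941 probes fell. Normexp background correction gave 3 falls and no rise, where 5713 of all probes fell. With the fit limited to probes above background on all 8 arrays, 2 of 6 fell and none rose, where 5462 of all 23580 fell.

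Pseudogenes were the largest named class after clone and model names. Of 114 tested probes, 15 rose (13.2%, against 26.0% of all probes) and 31 fell (27.2%, against 23.8%), with a median change of 0.03; falls outnumbered rises under each scaling tried. Besides the class I, Schlafen and Stxbp3 pseudogenes, Zfp133-ps rose by 0.82, and Nlrp1c-ps (-1.47), Hmgb1-rs17 (-1.06) and Hmga2-ps1 (-0.90) were among those that fell. For 13 pseudogenes whose name points to a parent gene with a tested probe, the change of the pseudogene and of the parent had a Pearson r of 0.93 and a Spearman rho of 0.85 over the 13 pairs. Stxbp3-ps rose by 1.73 and Stxbp3 by 1.80, Pdxk-ps fell by 0.65 and Pdxk by 0.60, and Rps15a-ps6 fell by 0.33 and Rps15a by 0.39. Pseudogene and parent share sequence and can bind each other's probes, so that their signals cannot be told apart here.

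Opposite-strand transcripts, which overlap or abut a coding gene on the other strand, gave 6 up and 3 down of 19 (31.6% and 15.8%, against 26.0% and 23.8% of all probes). Sp3os rose by 0.63 on both probes, while Sp3, a transcription factor gene, was not called (0.06 ± 0.12). Dnmt3aos fell by 0.54 ± 0.13 and Dnmt3a, a DNA methyltransferase, by 1.49 ± 0.11, the one pair in which both passed in the same direction. Over 14 such pairs Pearson's r was 0.05 and Spearman's rho 0.05. Non-coding transcripts of coding genes gave 3 up and 1 down of 11 (27.3% and 9.09%, against the same 26.0% and 23.8%): Bmp1 rose by 0.73 while its mRNA probe was not called (-0.15), and Bcor, a transcriptional corepressor, fell on its non-coding probe by 0.67 and on its mRNA probe by 0.47. Of the 223 probes under RIKEN, Gm or clone names 60 rose and 49 fell (26.9% and 22.0%, near the 26.0% and 23.8% of all probes), and of 38 with no matched name 13 rose and 8 fell (34.2% and 21.1%).

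**Figure D3:**
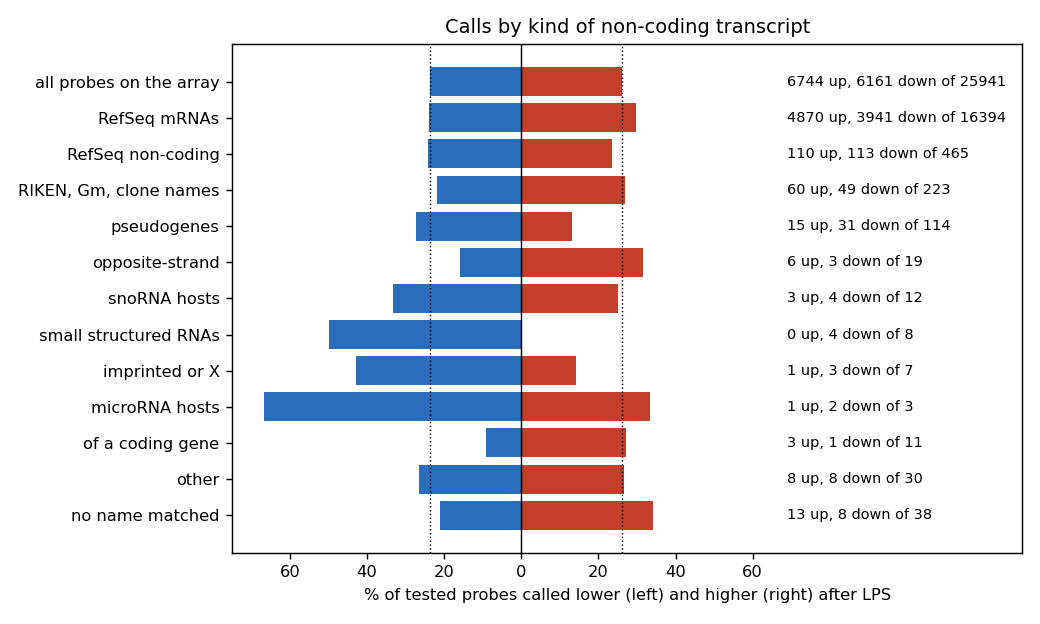
Share of tested probes called lower (left, blue) and higher (right, red) after LPS, in percent, for all probes on the array, mRNA probes, all non-coding probes and each kind of non-coding transcript; dotted lines mark the shares over all probes and the counts stand at the right. Pseudogenes have 15 up and 31 down of 114, and small structured RNAs have no bar to the right; several kinds hold fewer than 20 probes.

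Where a gene had several tested probes, the probes did not always give the same result. Of 45 such names, 12 had every probe called the same way, 10 had some called and none opposite, 22 had none called, and 1, Gm833, had probes called in opposite directions (-0.58 and 0.73). Counting each accession once, by averaging its probes, left 106 up and 95 down of 408. The matching shares over all accessions are not given here.

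Neighbouring coding genes were set beside 277 members, using gene order in RefSeq's GRCm38.p6 table. When a member rose, its nearest coding gene rose in 26 of 62 pairs (41.9%) and fell in 8; when a member fell, the neighbour fell in 29 of 73 pairs (39.7%) and rose in 9. Of all 12338 tested coding genes 30.6% rose and 24.0% fell. Pearson's r between the changes was 0.26 and Spearman's rho 0.34 over the 277 pairs, which share the 8 arrays. In the 115 pairs that overlap r was 0.40 and rho 0.37, and in the other 162 r was 0.20 and rho 0.30. Over the 263 pairs with both probes above background on at least 1 array of each group, a choice made after seeing the data, r was 0.30 and rho 0.32. Overlapping genes can share transcripts or probes. The plot of member against neighbour shows the loose relation and its exceptions, among them Gm4956, which fell by 1.62 beside Gsta3, which rose by 1.70.

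**Figure D4:**
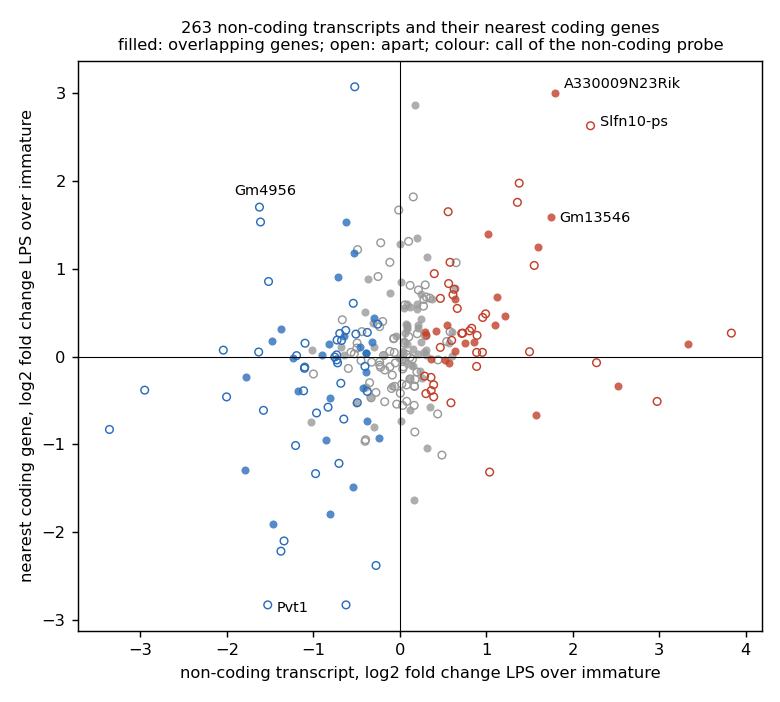
Log2 change of the nearest coding gene (vertical) against that of the non-coding probe (horizontal) for the 263 pairs in which both probes were above background on at least 1 array of each group; filled points are genes that overlap, open points genes that do not, and colour gives the call of the non-coding probe. A330009N23Rik and Pvt1 lie in the corners where both changed alike, and Gm4956 in the corner where the member fell and its neighbour rose. Pairs with a probe for which only a bound can be given, U90926 among them, are not drawn.

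Some neighbourhoods moved together over several genes. The 6 members shown by locus were chosen after their values were seen, and all coding genes with a tested mRNA probe within 100000 bases are given. 1700028J19Rik lies in the glandular kallikrein cluster, a family of secreted serine proteases, and all 6 kallikreins tested there fell: Klk1b3 by 5.33 ± 0.22, Klk1b24 by 4.75 ± 0.18, Klk1b4 by 4.63 ± 0.22, Klk1 by 4.12 ± 0.24, Klk1b5 by 3.93 ± 0.29 and Klk1b16 by 3.81 ± 0.27. The Klk1b genes are close copies, so their probes are not independent. Beyond the family, 2410002F23Rik (-2.37) and Clec11a (-1.08) fell and Shank1 was not called (-0.44).

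AW011738 lies near Isg15, the interferon-induced ubiquitin-like modifier, which rose by 4.22 ± 0.18. Agrn rose by 2.78 ± 0.16, Plekhn1 by 2.02 ± 0.14 and Klhl17 by 0.47. Noc2l fell by 0.77, and 9430015G10Rik did not pass (-0.11). Around Slfn10-ps, Slfn5 (2.64), Slfn8 (2.63), Slfn1 (1.97) and Slfn2 (0.61) rose and Slfn9 did not pass (-0.06). Near Mirt2, Grina (2.44), Parp10 (2.25), Exosc4 (0.44) and Maf1 (0.34) rose, and Smpd5, above background on no immature array, was at least 5.26-fold higher. Hgh1 fell (-1.33), and Plec (-0.03), Oplah, Gpaa1, Cyc1 and Sharpin did not pass. A330009N23Rik overlaps Grasp, which rose by 3.0 ± 0.34, and Acvr1b beside it rose by 1.05 ± 0.16, while Nr4a1, Atg101 and Acvrl1 did not pass. E230016K23Rik overlaps the chemokine gene Ccl6, which did not pass (-0.24 ± 0.09). E230016K23Rik fell although Ccl5 (2.82), Wfdc18 (1.59), Wfdc17 (0.95) and Ccl9 (0.39) nearby rose. Heatr9, above background on no immature array, was at least 3.29-fold higher, and Ccl3, Ccl4 and Taf15 did not pass.

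**Figure D5:**
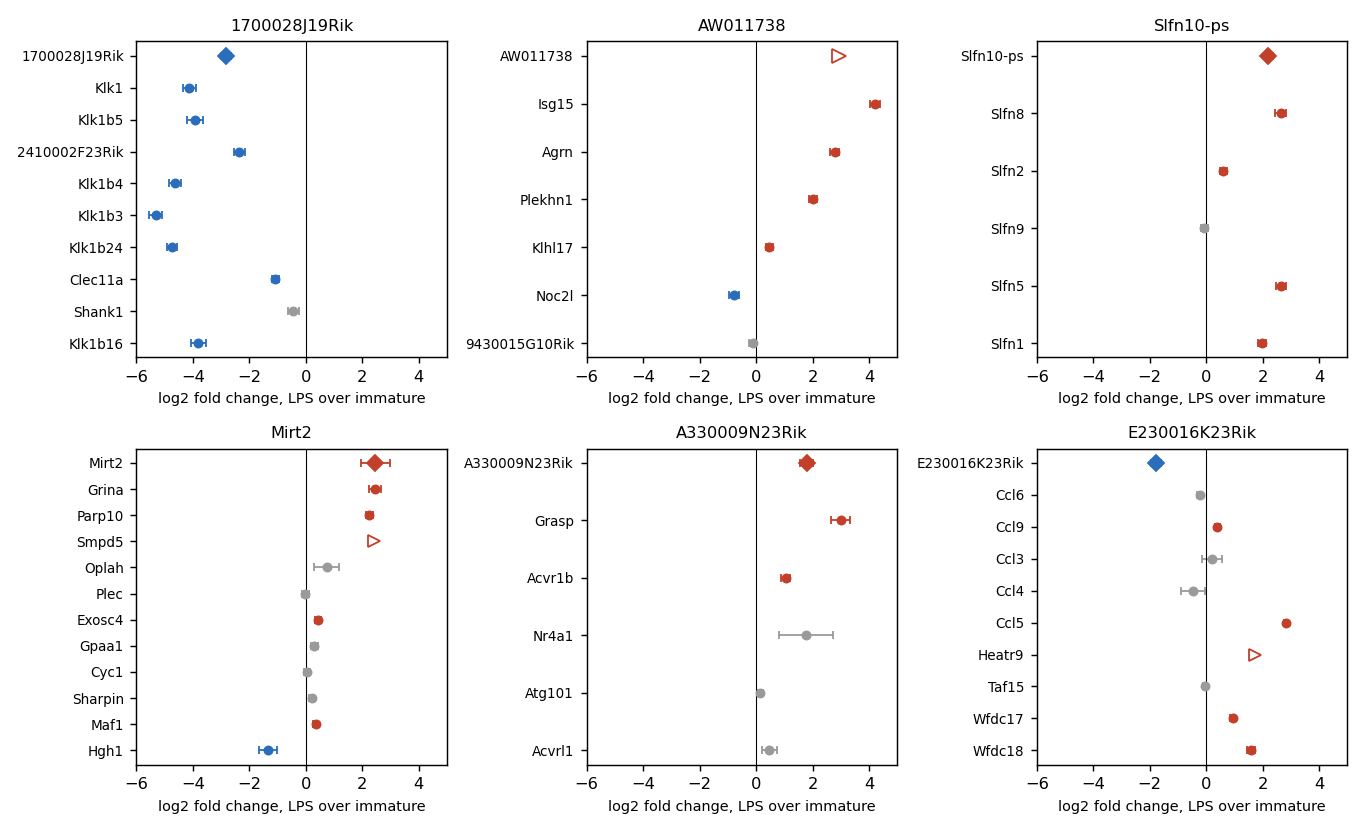
Log2 change with its standard error for 6 non-coding members (diamonds, top of each panel) and the coding genes with a tested mRNA probe within 100000 bases (circles, nearest first); open triangles mark the bound, with no error, of a probe above background on no array of 1 group (AW011738, Smpd5 and Heatr9); red was called higher, blue lower, grey not called. All kallikreins beside 1700028J19Rik lie left of 0, at or beyond -3.81, and the genes around E230016K23Rik lie on both sides.

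Further pairs changed alike. Gm13546 overlaps Cytip, a regulator of dendritic cell adhesion, which rose by 1.59 ± 0.12; F730043M19Rik overlaps Atxn7l1, which rose by 1.25 ± 0.09; and 9930014A18Rik overlaps Lratd2, which was above background on no LPS array and at least 4.89-fold lower. Mexis, a macrophage RNA known for its link to the cholesterol exporter gene Abca1 and singled out after its values were seen, rose by 1.38, above background on 1 immature and 4 LPS arrays, and Abca1 rose by 1.98.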

How the data were processed

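Total RNA of 8 samples was hybridised to 1-colour Agilent mouse arrays, 1 array a sample, after cRNA labelling with Cy3, per the labels' protocols. The deposited intensity is Agilent Feature Extraction's processed signal (version 11.0.1.1, per the submitters' processing notes and the file headers), already background-corrected by the software, in arbitrary units, not normalized between arrays; the deposited flags for outliers and for signal well above background were used as well. Each log2 signal was reduced by its array's 75th percentile (450.1 to 490.7 units in immature arrays, 392.3 to 420.6 after LPS). Outlier-flagged spots were left out and spots of a probe averaged. limma 3.58.1 in R 4.3.3 fitted 25941 probes on all 8 arrays, with 4 arrays a group limiting the precision. No non-coding spot was saturated.

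The deposited files pair no probe with a gene name, so the classes planned on names and descriptions use symbols and gene types that RefSeq's table (GRCm38.p6) gives for each accession. Members and gene lists were chosen with earlier results of these data known. Named were the 10 largest called changes in each direction among probes above background on all arrays with groups apart, the 4 largest bounds in each direction, the largest change of each class, and a list of known non-coding RNAs. A bound replaces a dim array's value, where lower, by that array's dimmest level that still passed the background flag. Sequences are RefSeq's. The code of the test was run on simulated arrays with independent noise and few changed probes. These arrays differ from that setting, so the run does not bear on the calls. Alternatives covered background correction, scaling, filtering, a replicate block, leaving out each array and, chosen after seeing that replicates 1 and 2 were closest in each group, averaging them.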

Additional observations from a re-analysis of the deposited data

Results flagged for a closer look

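Within groups of 4, the highest or lowest array was set against the others by Dixon's ratio, which chance exceeds in about 1 in 20 groups; 5 of 103 groups of the named members (4.85%) exceeded it. Immature replicate 3 stood apart for 4930520O04Rik, at -2.04 against -2.37 to -2.32, and for 4930509E16Rik, at -2.43 against -1.82 to -1.73. LPS replicate 4 stood apart for the non-coding Bcor probe, at 0.34 against 0.75 to 0.82, for Morrbid, at -0.57 against -0.94 to -0.90, and for 1 Xist probe, at 0.36 against -0.05 to -0.00.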

How the results depend on the processing

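Over 58 results, 979 of 1029 values under alternative settings kept direction and side of the threshold; 31 lost the call, 7 gained it and 12 changed sign. Without scaling 70 probes were higher, and without the filter on dim probes 542 were, of 1400 tested. Without that filter 19133 of all 55681 probes were higher, 75.5% of those called, against 82.1% of the called members. The median change was then 0.31 over all probes and 0.42 over the members. Requiring a 2-fold change left 37 and 48. Leaving out 1 array gave 90 to 123 higher, 97 to 127 lower, and differences in the share above background of -2.38 (without immature replicate 3) to -1.20 percentage points. Over all probes it gave 5728 to 7287 higher and 5316 to 6933 lower. Arrays with the same number deviated together with correlations of 0.225, 0.110, 0.0993 and -0.0045. Whether such samples shared a mouse or culture cannot be told from these values. A replicate block gave 105 higher and 115 lower, and 6185 and 5901 over all 25941 probes. Only members not called changed sign: the brighter Xist probe to -0.15 (array median), -0.18 (no scaling) and -0.0492 (detected probes), with a range of -0.10 to 0.10 when 1 array was left out, the other Xist probe within -0.19 to 0.0143 when 1 array was left out, Airn within -0.14 to 0.0227 likewise and at 0.27 with its probes averaged, and Snhg5 to -0.0753 and -0.11 (array median, no scaling). Calls were lost for Snhg1 (11 settings), Ftx (7), Morrbid (6), the dimmer Kcnq1ot1 probe (2), and for Dancr, Mir17hg, Map2k3os, Terc and 1 unnamed transcript (1 each); the cause was not tested. Averaging replicates 1 and 2 left 85 higher and 89 lower, and 4981 and 4594 over all 25941 probes.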
